A study of Mus musculus with 39 samples.

Results

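A set of 9 genes that the developing cortex is known to use around the onset of gliogenesis was followed through 36 RNA-sequencing libraries of sorted neocortical cells: the nuclear factor I (NFI) genes Nfia, Nfib, Nfic and Nfix, the transcription factors Sox9 and Zbtb20, the homeodomain-only protein gene Hopx, and Tnc and Ptprz1, which encode an extracellular matrix protein and a receptor phosphatase that binds it. They are 9 of the 53379 genes listed in the count tables. They were chosen by symbol, and all 9 were found. Between embryonic day (E) 13 and E16, Sox9 fell and Zbtb20 rose when the 3 colours of each embryo were summed. Neither passed the threshold in any single colour with all 36 libraries. Each call in the sums was lost when certain single embryos of E13 were left out. Ptprz1 rose in green cells by a call at the threshold (log2 fold change 2.63, edgeR adjusted p = 0.0496). Its log2 fold change was alike in red cells (2.66), where it did not pass (adjusted p = 0.0721). Nfib and Nfia were the most abundant of the 9 at both ages, whereas Hopx and Tnc were at or near the detection limit in nearly every library.

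The cells came from the neocortex of mouse embryos at E13 or E16, with the strain labelled CD1 and the background of MADM animals given in the methods as a mix of CD1 and C57BL/6J, dissociated and sorted by fluorescence. All embryos were MADM-7;Emx1-Cre: chromosome 7 carried the MADM reporter cassettes (MADM-7-GT and MADM-7-TG, from Mosaic Analysis with Double Markers), and Emx1 drove Cre, which acts in progenitors of the dorsal telencephalon, so every group shares both and no group is a wild type without them. Red (tdTomato) and green (GFP) cells, called singly coloured here, arise from recombination during division and hold both copies of chromosome 7 from 1 parent. Yellow cells carry both reporters and a maternal and a paternal copy, and they also arise when recombination occurs without division. Single embryos were the replicates, and libraries of the same age and replicate number were the colours of 1 embryo. The labels give the colour of each library but not the parent, and the sample table of the study gives opposite cross directions for different sets of embryos, so neither red nor green stands for the same parent in all libraries. None of the 9 genes lies on chromosome 7.

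NFI proteins bind DNA as dimers of any pair of the 4 family members, and they promote the switch of radial glia from making neurons to making astrocytes, in part by opening glial genes. They also act in differentiating projection neurons. Sox9 is a transcription factor of neural stem cells and astrocytes that induces Nfia in the developing spinal cord and then works with it. Zbtb20 is a zinc finger repressor with roles in astrocyte formation and in late-born neurons. Hopx, Tnc and Ptprz1 are known as genes of basal radial glia in species with a folded cortex, and Tnc and Ptprz1 also stay on in astrocytes and in precursors of oligodendrocytes.

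Ptprz1 and Zbtb20 were the members that rose with age, and the 250 bases before their RefSeq starts (build GRCm38.p6) are shown because the starts differ in kind. The Ptprz1 window, chr6:22875252-22875501 on the plus strand, ends at the annotated start of the gene and overlaps no annotated gene. The Zbtb20 window, chr16:43247034-43247283 on the plus strand, lies inside the Zbtb20 gene, 371403 bases after the first annotated start, and holds no annotated exon. Capitals mark CG dinucleotides.
Ptprz1: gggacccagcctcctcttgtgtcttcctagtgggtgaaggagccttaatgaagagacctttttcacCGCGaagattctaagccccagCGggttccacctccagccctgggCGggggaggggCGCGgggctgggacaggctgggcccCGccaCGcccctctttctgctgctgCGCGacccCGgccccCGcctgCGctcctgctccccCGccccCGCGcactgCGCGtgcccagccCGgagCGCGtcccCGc
Zbtb20: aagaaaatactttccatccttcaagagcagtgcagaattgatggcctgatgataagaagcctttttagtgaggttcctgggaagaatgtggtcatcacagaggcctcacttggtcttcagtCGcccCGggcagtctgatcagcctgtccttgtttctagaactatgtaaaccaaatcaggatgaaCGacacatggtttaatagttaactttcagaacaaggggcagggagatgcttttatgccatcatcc
The Ptprz1 window held 22 CG dinucleotides at a GC content of 71.6%, against 3 and 44.8% for Zbtb20 and medians of 6 and 52.4% over all 32851 RefSeq promoter windows. The short NFI motif TTGGCA, read on both strands, was in neither window. It was found in 1 of the 12 windows of the 7 members that RefSeq lists here, a Tnc window, and in 12.3% of all windows. The palindromic NFI site, which can overlap the short motif, was in no member window and in 0.0365% of all windows. The SOX core ACAAT was in 5 of the 12 and in 27.7% of all. The 12 are not independent, since the Tnc windows overlap and share a SOX core, and Nfix has several windows. Sox9 and Nfib have no entry in that table.

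Of 39 libraries, 3 with under 40% uniquely aligned reads were left out, and each colour then had 5 libraries from E13 and 7 from E16. Counts in genes ran from 472924 to 5205788 per library and 7858 to 13768 genes were detected, and 3 counts corresponded to 0.521 to 5.76 CPM, the count scaled to library size and used as the unit below. The study also left out 4 of the 36 for low correlation with the rest: E13 yellow replicate 2, E16 red replicates 5 and 6 and E16 yellow replicate 7. Several of these stand far from their group for the genes described here, so results are given with all 36 and with the remaining 32. Sums of the 3 colours of an embryo need all 3 libraries. In the 32 libraries such sums therefore leave out the whole embryos E13 replicate 2 and E16 replicates 5, 6 and 7. In 3 of the 36, Xist and Y-linked genes were both present with at least 50 counts (E13 yellow replicate 2, E16 yellow replicate 5 and E16 green replicate 7). The sort is described as neurons in the series text, but markers of radial glia and of projection neurons were both abundant in every group. Summed radial glia markers (13 genes) had group medians of 1894 CPM in yellow, 3005 in red and 3587 in green cells at E13 and of 1508, 2243 and 2745 CPM at E16. Summed projection neuron markers (12 genes) had medians of 7384, 5123 and 4434 CPM at E13 and of 10260.1, 9069 and 8357 CPM at E16. Summed meningeal fibroblast markers reached 839 CPM at E13 and 41.4 CPM at E16, with red blood cell markers at up to 18806 and 6925 CPM and Cajal-Retzius markers at up to 567 and 209 CPM. Markers of microglia reached 191 CPM, of interneurons 143 CPM, of endothelial cells 133 CPM and of pericytes 103 CPM in single libraries of E13. In such pools, fewer cells of a type and less RNA per cell cannot be told apart.

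Levels of different genes were compared per kilobase of annotated exon. Over the 36 libraries the median was 91.9 CPM per kb for Nfib, 35.6 for Nfia, 14.8 for Sox9, 11.6 for Ptprz1, 6.13 for Nfix, 3.50 for Zbtb20, 0.113 for Nfic and 0 for Hopx and Tnc. Nfib was above Nfia in 35 of the 36 libraries, Nfix above Zbtb20 in 29 and Zbtb20 above Nfic in all 36. The order in the middle differed between the ages. Sox9 was above Ptprz1 in 15 of 15 libraries at E13, at medians of 41.0 and 2.35 CPM per kb, and in 5 of 21 at E16, at medians of 9.05 and 14.9. Ptprz1 was above Nfix in 4 of 15 libraries at E13 and in 16 of 21 at E16. Nfia was above Sox9 in 10 of 15 libraries at E13, where their ranges overlapped, and in 21 of 21 at E16. The annotated exons of Zbtb20 span 30.73 kb in all its isoforms together, against 4.135 kb for Sox9, and the value per length is lower the more of this length a transcript leaves out.

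**Figure D1:**
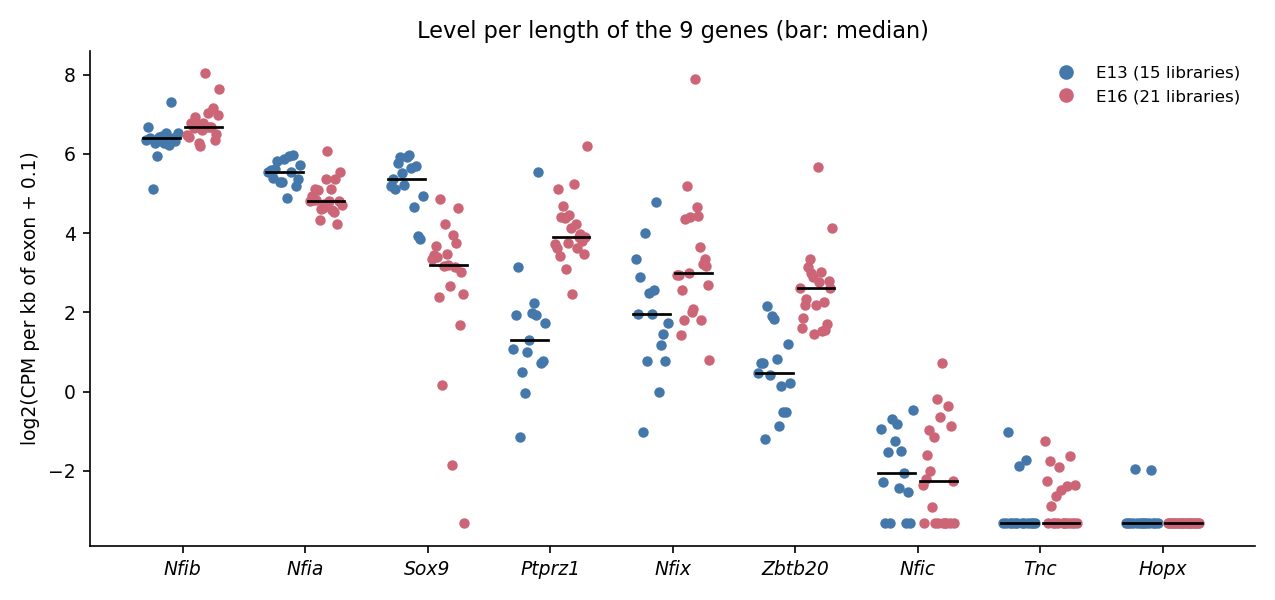
Level of each of the 9 genes per kilobase of annotated exon, as log2(CPM per kb + 0.1), in the 15 libraries of E13 (blue) and the 21 of E16 (pink); each point is a library and bars are medians. Nfib and Nfia sit highest at both ages, Sox9 is lower and Ptprz1 and Zbtb20 are higher at E16, and Tnc and Hopx sit at the bottom of the axis, where points mark 0 counts.

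Sox9, at chr11:112782224-112787760 (GRCm38, plus strand), had a lower median at E16 in each of the 3 colours. At E13 it was at 59.1, 63.0, 105, 127 and 213 CPM in yellow cells, at 154, 189, 205, 252 and 261 CPM in red cells and at 142, 152, 169.7, 225 and 252 CPM in green cells. At E16 the lowest, median and highest values were 0, 33.2 and 103 CPM in yellow, 0.728, 37.4 and 76.8 CPM in red and 4.25, 43.0 and 120.5 CPM in green cells. The ages did not overlap in red and in green cells and overlapped in yellow cells. The log2 fold change from E13 to E16 was -1.61 in yellow (SE 0.85, adjusted p = 0.683), -2.40 in red (SE 0.68, adjusted p = 0.201) and -1.98 in green cells (SE 0.56, adjusted p = 0.1004), by edgeR's quasi-likelihood test adjusted over all genes tested. None of the 3 passed the threshold of 0.05. In the sum of the 3 colours of each embryo, Sox9 was at 144, 164, 173 and 187 CPM in the 4 embryos of E13 and between 7.59 and 60.8 CPM (median 37.9) in the 7 of E16, without overlap. There it fell by 2.10 on the log2 scale (SE 0.43, edgeR adjusted p = 0.0174). Without E13 replicate 4 or 6 the adjusted p was 0.0527 or 0.0513, at log2 fold changes of -2.11 and -2.08. In the 32 libraries Sox9 fell in red cells too (-2.04, edgeR adjusted p = 0.00797), while yellow cells were at -1.03 (adjusted p = 0.439). The lowest values of Sox9 at E16, 0 in yellow replicate 7 and 0.728 CPM in red replicate 6, are among the libraries that the study left out.

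Zbtb20, at chr16:42875881-43642602 (plus strand), had a higher median at E16 in each colour. At E13 it was at 18.6, 18.6, 30.9, 32.8 and 67.9 CPM in yellow, at 13.8, 37.8, 51.6, 107 and 113 CPM in red and at 10.3, 39.4, 47.2, 47.4 and 135 CPM in green cells. At E16 the lowest, median and highest values were 85.2, 144 and 531 CPM in yellow, 80.5, 227 and 1576 CPM in red and 90.7, 152 and 311 CPM in green cells. The ages did not overlap in yellow cells and overlapped in red and green cells, where the highest E13 libraries (red replicates 2 and 3, green replicate 6) reached the lowest of E16. The log2 fold change was 2.49 in yellow (SE 0.59, adjusted p = 0.131), 2.53 in red (SE 0.76, adjusted p = 0.224) and 1.68 in green cells (SE 0.54, adjusted p = 0.139), all by edgeR and none past the threshold. In embryo sums Zbtb20 was at 26.9, 34.2, 54.5 and 55.8 CPM at E13 and between 88.8 and 563 CPM (median 161) at E16, without overlap. It rose there by 2.55 (SE 0.53, edgeR adjusted p = 0.0190). The call was lost without E13 replicate 1, 4 or 6 (edgeR adjusted p = 0.0632, 0.0782 and 0.0515). The 1576 CPM of E16 red replicate 5 and the 531 CPM of E16 yellow replicate 7 are from libraries the study left out. Without the 4 libraries that it left out, embryo sums held only embryos with all 3 colours and rose by 1.76 (edgeR adjusted p = 0.0268). The rise in yellow cells was then 1.85 (edgeR adjusted p = 0.0491), while red cells were at 1.52 (adjusted p = 0.187).

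Ptprz1, at chr6:22875502-23052916 (plus strand), encodes a receptor-type tyrosine phosphatase that binds tenascins, contactin and pleiotrophin. At E13 it was at 22.2, 22.8, 46.0, 52.7 and 662 CPM in yellow, at 12.5, 27.1, 33.4, 55.3 and 65.9 CPM in red and at 4.97, 18.7, 28.7, 52.8 and 125 CPM in green cells. At E16 the lowest, median and highest values were 157, 212 and 1051 CPM in yellow, 77.8, 248 and 535 CPM in red and 150.4, 293 and 491 CPM in green cells. The ages did not overlap in red and in green cells, and in yellow cells the 662 CPM of E13 replicate 2 was the only E13 value within the range of E16. Ptprz1 rose in green cells by 2.63 on the log2 scale (SE 0.63, edgeR adjusted p = 0.0496). It differed by 2.66 in red (SE 0.58, adjusted p = 0.0721) and 0.97 in yellow cells (SE 0.83, adjusted p = 0.919), by the same test. The green call is at the threshold: it held without E13 replicate 3 or 4 and was lost when any other of the 12 libraries was left out (edgeR adjusted p of 0.0541 to 0.108, log2 fold change 2.43 to 2.74). In embryo sums Ptprz1 was at 28.3, 29.2, 43.2 and 228 CPM at E13 and between 161 and 660.1 CPM (median 217) at E16, which differed by 1.88 in log2 (SE 0.61, edgeR adjusted p = 0.117). The 228 CPM is the embryo that holds E13 yellow replicate 2. Without that embryo Ptprz1 rose by 3.16 (edgeR adjusted p = 0.00629), and with red and green summed without yellow, an alternative added after the values were seen, it rose by 2.88 (adjusted p = 0.000962). In the 32 libraries it rose by 2.44 in yellow (edgeR adjusted p = 0.00159), 2.54 in red (adjusted p = 0.0160) and 2.76 in embryo sums (adjusted p = 0.00377). Those sums lack the whole embryos E13 replicate 2 and E16 replicates 5, 6 and 7.

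**Figure D2:**
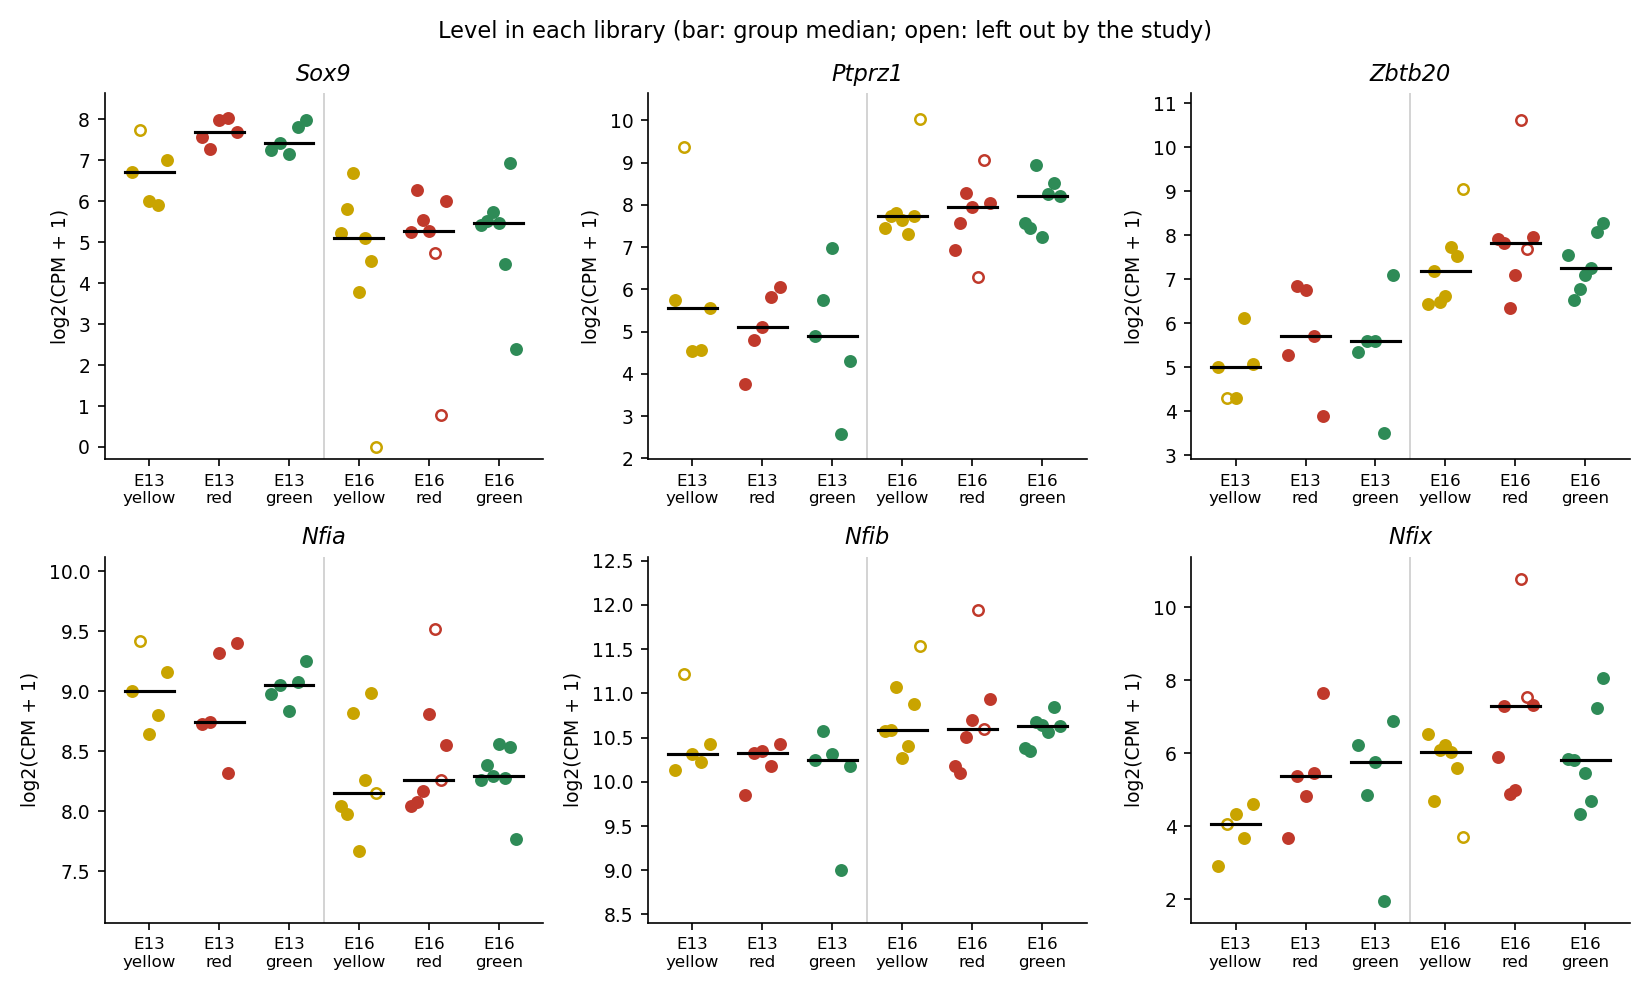
Level of 6 of the genes in each library as log2(CPM + 1), by age and colour; each point is a library, bars are group medians, and open points are the 4 libraries that the study left out. Sox9 sits lower at E16, Ptprz1 and Zbtb20 sit higher, and the open points for Ptprz1 in E13 yellow (662 CPM), Zbtb20 in E16 red (1576 CPM) and Sox9 in E16 yellow (0) stand apart from their groups; each panel has its own vertical scale.

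Of the NFI genes, none passed the threshold between the ages in any colour or in embryo sums (edgeR, all 36 libraries). Nfia, at chr4:97772734-98118874 (plus strand), had medians of 511, 427 and 529 CPM in yellow, red and green cells at E13 and of 284, 306 and 313 CPM at E16. In green cells every E16 library (217 to 376 CPM) was below every E13 library (455 to 610.4 CPM). The other colours overlapped. Its log2 fold change was -0.73 in green (SE 0.21, edgeR adjusted p = 0.105), -0.70 in yellow (SE 0.30, adjusted p = 0.476), -0.41 in red (SE 0.33, adjusted p = 0.750) and -0.57 in embryo sums (SE 0.19, adjusted p = 0.128). Nfib, at chr4:82290173-82705750 (minus strand), had medians of 1269, 1281 and 1216 CPM at E13 and of 1531, 1542 and 1587 CPM at E16 in yellow, red and green cells, with overlap in every colour. Its log2 fold change lay between 0.29 and 0.56 in the 3 colours and was 0.47 in embryo sums (SE 0.22, edgeR adjusted p = 0.273).

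The ratio of Nfib to Nfia within a library, per kilobase of exon, did not overlap between the ages, whereas each gene did when the colours were pooled. It ran from 0.695 to 2.64 in the 15 libraries of E13 and from 2.69 to 7.58 in the 21 of E16, so the highest E13 library was just below the lowest of E16. Group medians were 1.94, 1.59 and 1.76 in yellow, red and green cells at E13 and 4.22, 3.67 and 3.55 at E16. In embryo sums the ratio was between 1.54 and 2.29 at E13 and between 3.06 and 6.12 at E16. This ratio was chosen after the values were seen and was not tested. How many other gene pairs have ratios that separate the ages was not counted.

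Nfix, at chr8:84699876-84800344 (minus strand), varied widely between libraries of a group. At E13 it was at 6.55, 11.9, 15.8, 19.3 and 23.6 CPM in yellow, at 11.7, 27.7, 40.8, 42.7 and 201 CPM in red and at 2.90, 28.0, 53.5, 73.6 and 118 CPM in green cells. At E16 the lowest, median and highest values were 12.0, 64.9 and 91.9 CPM in yellow, 28.7, 155 and 1747 CPM in red and 19.1, 55.4 and 266 CPM in green cells. The ages overlapped in every colour. In yellow cells without the libraries that the study left out they did not, and Nfix there was at 2.01 (edgeR adjusted p = 0.0869). The log2 fold change with all 36 libraries was 1.82 in yellow (SE 0.69, edgeR adjusted p = 0.355), 2.33 in red (SE 1.04, adjusted p = 0.381), 0.68 in green (SE 0.79, adjusted p = 0.780) and 1.75 in embryo sums (SE 0.74, adjusted p = 0.218). The 1747 CPM is E16 red replicate 5. In the 32 libraries the values were 0.40 in red and 0.27 in the sums of those embryos that kept all 3 colours. In green cells the value was 0.0875 without E16 replicate 7 and 1.16 without E13 replicate 6. Nfic, at chr10:81396186-81455635 (minus strand), was at 0 counts in 12 of the 36 libraries and over 3 counts in 16, with 10.2 CPM (42 counts, E16 red replicate 6) as its highest value. It reached the minimum mean count in red cells and embryo sums only, at 0.45 (SE 1.52, edgeR adjusted p = 0.966) and 0.13 (SE 1.42, adjusted p = 0.978).

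Hopx and Tnc were too low to compare. Hopx, at chr5:77086988-77115121 (minus strand), had 2 counts in all 36 libraries together, 1 in E13 yellow replicate 2 and 1 in E13 green replicate 6. A count of 0 allows up to 3 counts, so a level under the limit of each library was not detectable. Hopx shares 412 exon bases with the antisense gene Hopxos and Tnc 176 with 8030451A03Rik. Reads in shared bases are not assigned to either gene in unstranded counting. Tnc, at chr4:63959785-64047015 (minus strand), had 42 counts in all, none in 23 libraries and at most 6 in any. Its counts exceeded 3 in 3 of the 15 E13 libraries and 3 of the 21 E16 libraries, with 3.06 CPM in E13 green replicate 3 as the highest value. Neither gene was tested.

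Over all comparisons of age, the members called were set beside the share of all genes called. In yellow cells none of the 6 members tested passed by edgeR, where 0.149% of all genes did, 3 were at an unadjusted p under 0.05 (8.69% of all genes) and 1 passed by DESeq2 (1.71%), which gave no adjusted p for Ptprz1. In red cells none of 7 passed by edgeR (0.322% of all genes), 4 were at an unadjusted p under 0.05 (11.7%) and 3 passed by DESeq2 (2.67%). In green cells 1 of 6 passed by edgeR (1.39%), 4 were at an unadjusted p under 0.05 (15.7%) and 4 passed by DESeq2 (6.18%). In embryo sums 2 of 7 passed by edgeR (2.64%), 5 were at an unadjusted p under 0.05 (18.6%) and 4 passed by DESeq2 (7.84%). In the 32 libraries 2 of 6 passed in yellow cells (1.3% of all genes), 2 of 6 in red cells (1.68%) and 3 of 7 in embryo sums (3.15%). The embryo sums of the 32 hold only the embryos that kept all 3 colours. The ages did not overlap for 1 of 6 members in yellow cells (1.43% of all genes), 2 of 7 in red cells (2.5%) and 3 of 6 in green cells (3.54%). The embryo sums hold the same libraries as the 3 colours and are not a separate line of evidence.

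**Figure D3:**
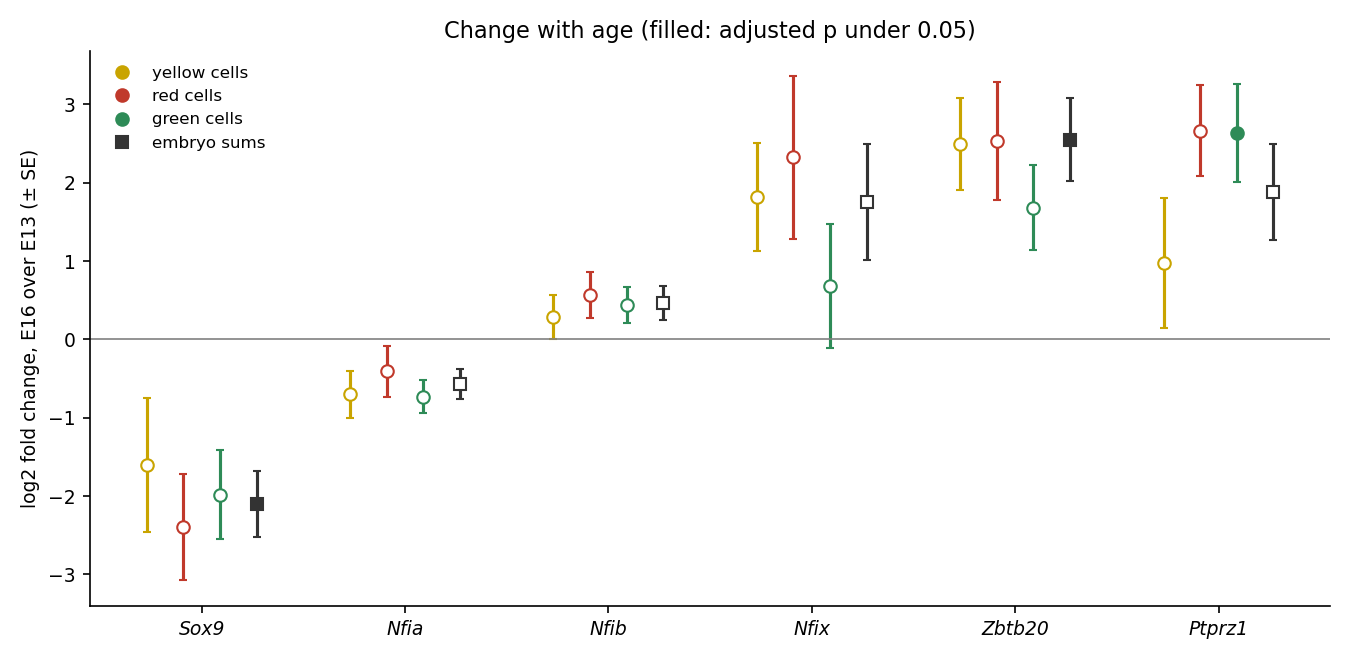
Log2 fold change from E13 to E16 with its standard error for 6 genes in yellow, red and green cells and in embryo sums (black squares); filled symbols passed the edgeR test at an adjusted p under 0.05. Sox9 and Nfia lie below 0 and Nfib, Nfix, Zbtb20 and Ptprz1 above 0 in every set, and the filled symbols are Sox9 and Zbtb20 in embryo sums and Ptprz1 in green cells.

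Marker genes of cell types moved between the ages as well. In embryo sums 7 of the 13 radial glia markers fell and none rose, among them Nes, an intermediate filament of neural progenitors (-4.30, SE 0.69, edgeR adjusted p = 0.00418), Sox2 (-3.09, SE 0.70, adjusted p = 0.0318) and Vim (-1.66, SE 0.24, adjusted p = 0.00206). Of the 12 projection neuron markers 6 rose and none fell, among them Neurod6, a transcription factor of differentiating projection neurons (1.34, SE 0.18, edgeR adjusted p = 0.00156), and Snap25, a protein of synaptic vesicle fusion (1.63, SE 0.22, adjusted p = 0.00155). Beside these counts, 2.64% of all genes passed by edgeR in embryo sums. Positive values were found for 3 of the 13 radial glia markers, and negative values for 3 of the 12 projection neuron markers. Fabp7, a radial glia marker, had group means of 604 to 970 CPM at E13 and of 915 to 1592 CPM at E16. Tbr1, a projection neuron marker, had group means of 282 to 631 CPM at E13 and of 215 to 298 CPM at E16. In embryo sums Sox9 had a negative value, as did 10 of the 13 radial glia markers. Zbtb20 had a positive value there, as did 9 of the 12 projection neuron markers. Of the 6 meningeal fibroblast markers 3 fell, and of the 6 intermediate progenitor markers 1 fell. No interneuron, microglia, endothelial, pericyte, red blood cell or Cajal-Retzius marker passed in embryo sums (edgeR). In green cells 3 of 5 red blood cell markers were called lower at E16. Their sum in E13 green cells had a median of 4.59 CPM and a highest value of 6862 CPM, so the level at E13 rests on a single library. The part of all these cell type markers in the changes of Sox9, Zbtb20 and Ptprz1 was not tested.

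Over the 36 libraries, Sox9 had a Spearman rho of -0.68 with the summed projection neuron markers and of 0.26 with the summed radial glia markers. Ptprz1 had 0.55 and -0.54, Zbtb20 0.50 and -0.12, Nfib 0.47 and -0.45, Nfix 0.38 and 0.06, and Nfia -0.42 and 0.23. The sums add CPM, so abundant genes weigh most. In E16 green cells the radial glia sum held means of 1592 CPM for Fabp7 and 624 CPM for Dbi. Vim was at 201 CPM, Sox2 at 15.7 CPM and Nes at 3.70 CPM in the same group. The 36 points share ages, embryos and library depth, and the values are descriptions. The genes most like Sox9 over these libraries, among 11472 genes with a mean count of at least 10, were Sox2 (rho 0.82) and Nes (0.82), both genes of neural progenitors. Those most like Nfia were Gpsm2 (0.78), a regulator of spindle orientation, and Nusap1 (0.75), a protein of the mitotic spindle. Those most like Ptprz1 were Ank2, a neuronal ankyrin (0.83), and Syt16 (0.80). For Nfib they were Map4k5 (0.77) and Gria2, an AMPA receptor subunit (0.74), for Zbtb20 Mpped1 (0.73) and Limch1 (0.69), and for Nfix Ythdf2, a reader of methylated adenosine in RNA (0.69), and Slc39a11 (0.68). Between members, Nfib and Ptprz1 had the highest rho (0.71), then Nfia and Sox9 (0.62), and the lowest was between Sox9 and Zbtb20 (-0.64).

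**Figure D4:**
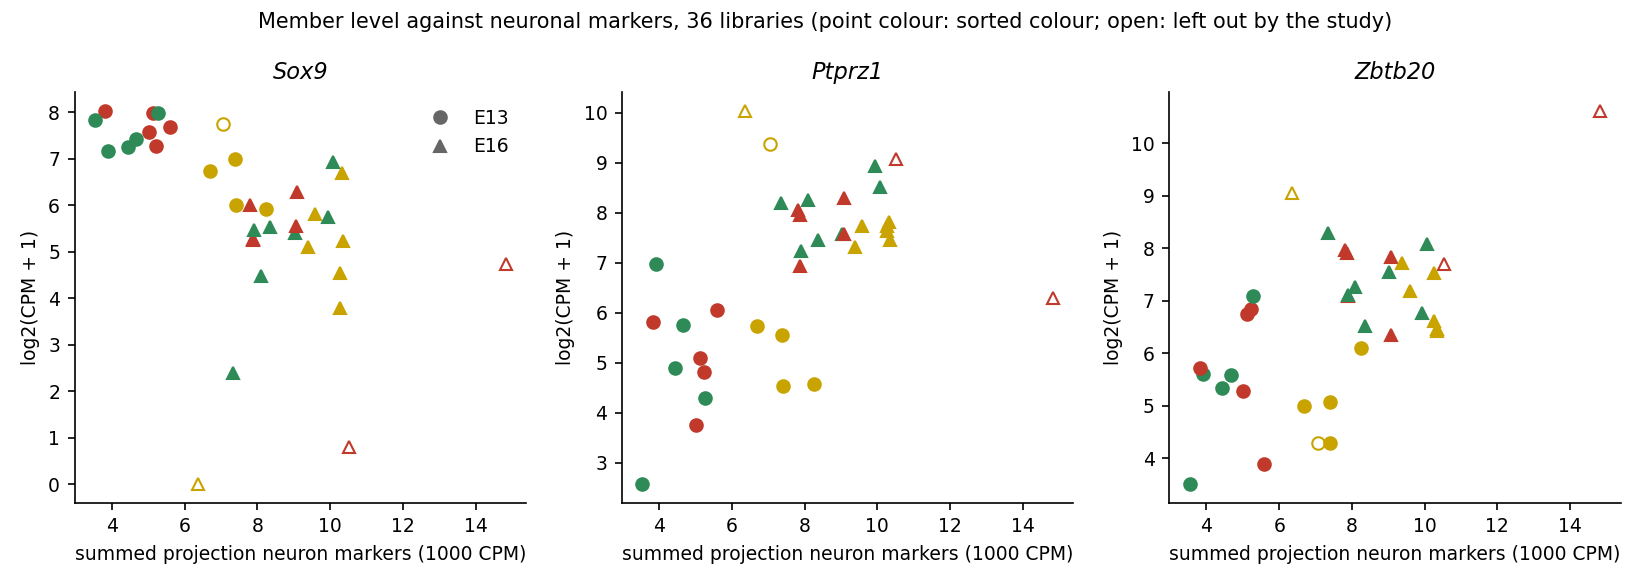
Level of Sox9, Ptprz1 and Zbtb20 as log2(CPM + 1) against the summed CPM of 12 projection neuron markers in 36 libraries; circles are E13, triangles E16, the point colour is the sorted colour, and open points are the 4 libraries that the study left out. Sox9 runs downwards (rho -0.68) and Ptprz1 and Zbtb20 upwards (rho 0.55 and 0.50), and E16 libraries lie mostly to the right of E13 libraries.

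Other genes of the same processes were read from lists. Of 20 genes of the astrocyte lineage, 18 were tested in embryo sums, where Sparcl1, a secreted astrocyte protein, rose (3.13, SE 0.58, edgeR adjusted p = 0.0118) and Fgfr3, a receptor of progenitors and astrocytes, fell (-2.86, SE 0.53, adjusted p = 0.0113). The median log2 fold change of the list was -0.06, beside 0.04 over all genes. In single colours no gene of the list passed by edgeR, with 15 tested in yellow, 17 in red and 15 in green cells. Gfap, the intermediate filament of mature astrocytes, was at 0 in all 36 libraries. Aqp4 had 37 counts and Aldh1l1 197 counts over all of them. Of 12 genes of the oligodendrocyte lineage, 8 were tested in embryo sums, where Pdgfra, a receptor of oligodendrocyte precursors and also of meningeal cells, fell (edgeR adjusted p = 0.0131). It had over 3 counts in 9 libraries, all of E13, at up to 46.4 CPM, and at most 0.304 CPM at E16. Of 17 genes of gliogenic signalling, 16 were tested in embryo sums and none passed by edgeR, with a median of -0.28.

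Of 6 targets and partners of Sox9 and Nfia, 5 were tested in embryo sums. There the POU factors Pou3f2 (3.14, SE 0.41, edgeR adjusted p = 0.00138) and Pou3f3 (1.44, SE 0.35, adjusted p = 0.0440), known for roles in upper layer neurons, rose, and Pou3f2 also rose in red cells (3.19, SE 0.48, adjusted p = 0.0144). Of 14 ligands and receptors of Tnc and Ptprz1, 13 were tested in embryo sums, where Chl1, a cell adhesion molecule of neurons, rose (3.18, SE 0.22, edgeR adjusted p = 8.19e-06). Chl1 rose also in yellow (3.18, SE 0.51, adjusted p = 0.0259) and red cells (3.17, SE 0.44, adjusted p = 0.00897). It had group means of 43.5 to 59.2 CPM at E13 and of 438 to 542 CPM at E16. In embryo sums 9 of the 13 had positive values, with a list median of 0.69 beside 0.04 over all genes.

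Within embryos, singly coloured and yellow cells were compared with the embryo as a block. No member passed at either age by edgeR, and none was at an unadjusted p under 0.05 or passed by DESeq2, with 6 members tested each time. Of all genes, 0.00848% passed at E13 between singly coloured and yellow cells, 0.0255% between green and yellow, 0% between red and yellow, and 0% in all 3 comparisons at E16. At an unadjusted p under 0.05 the shares were 6.86%, 6.35% and 4.69% at E13 and 2.38%, 1.54% and 2.9% at E16, in the same order, and by DESeq2 they were 4.56%, 4.43% and 2.72% at E13 and 0.76%, 0.547% and 1.14% at E16. At E13 Sox9 differed by 0.70 on the log2 scale (SE 0.41, edgeR adjusted p = 0.780), with singly coloured above yellow cells in 3 of the 4 embryos with all colours, by between 0.69 and 1.93. In replicate 2, the embryo with the yellow library left out by the study, the difference was -0.39. Radial glia markers were positive for 12 of 12 genes tested in that comparison (median 1.11), none called by edgeR, and Vim was higher in green than in yellow cells (1.72, SE 0.25, adjusted p = 0.04996). Projection neuron markers were negative for 11 of 12 genes tested (median -0.55) and Cajal-Retzius markers for 4 of 4 (-2.98). Meningeal markers were positive for 5 of 5 (1.65), beside a median of -0.10 over all genes. The microglia markers Cx3cr1, C1qb, Aif1 and Tyrobp had means of 0 CPM in red and green cells at E13. They had over 3 counts in 3, 3, 6 and 2 of the 36 libraries. They reached the minimum count at E13 through yellow libraries only, so their sign was fixed and no difference is read from them. The part of the marker lists in the differences of the members was not tested. Ptprz1 was at -1.49 (SE 0.90, edgeR adjusted p = 0.789). The mean of red and green was below yellow in 4 of 4 embryos, with single differences from -4.11 to -0.37. Red cells alone were above yellow cells in replicate 4 (log2 CPM of 5.80 against 4.51) and replicate 6 (6.06 against 5.54). The -4.11 is replicate 2, and without that replicate the fitted value was -0.47 (adjusted p = 0.971). By the same mean, Nfib was also lower in 4 of 4 (-0.40, SE 0.23, edgeR adjusted p = 0.780) and Zbtb20 higher in 4 of 4 (1.04, SE 0.79, adjusted p = 0.858). The colours taken singly did not all go this way. Nfib was above yellow in green cells of replicate 1 and in red cells of replicate 6. Zbtb20 was below yellow in green cells of replicate 4 and in red cells of replicate 6. The share of all genes with the same sign in 4 of 4 embryos was not taken. Nfix was at 1.59 (SE 0.95, adjusted p = 0.782) and Nfia at -0.11 (SE 0.24, adjusted p = 0.981).

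At E16 the differences between singly coloured and yellow cells were 0.56 for Sox9 (SE 0.92), 0.71 for Nfix (SE 0.77), 0.42 for Zbtb20 (SE 0.39), 0.11 for Nfia (SE 0.27), -0.12 for Nfib (SE 0.20) and -0.08 for Ptprz1 (SE 0.35), each with an edgeR adjusted p of 1. By the mean of red and green, Sox9 was higher than in yellow cells in 4 of 7 embryos, with single values from -1.06 to 4.84. The highest of these holds the yellow library with 0 counts of Sox9. Nfix ran from -1.50 to 4.04. Green and red cells against yellow cells taken singly gave no call for any member at either age. The difference between singly coloured and yellow cells did not change between E13 and E16 past the threshold for any of 6 members by edgeR (0% of all genes), nor at an unadjusted p under 0.05 (4.14%) or by DESeq2 (1.87%). Its largest value was 1.41 for Ptprz1 (SE 0.87, edgeR adjusted p of 1).

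**Figure D5:**
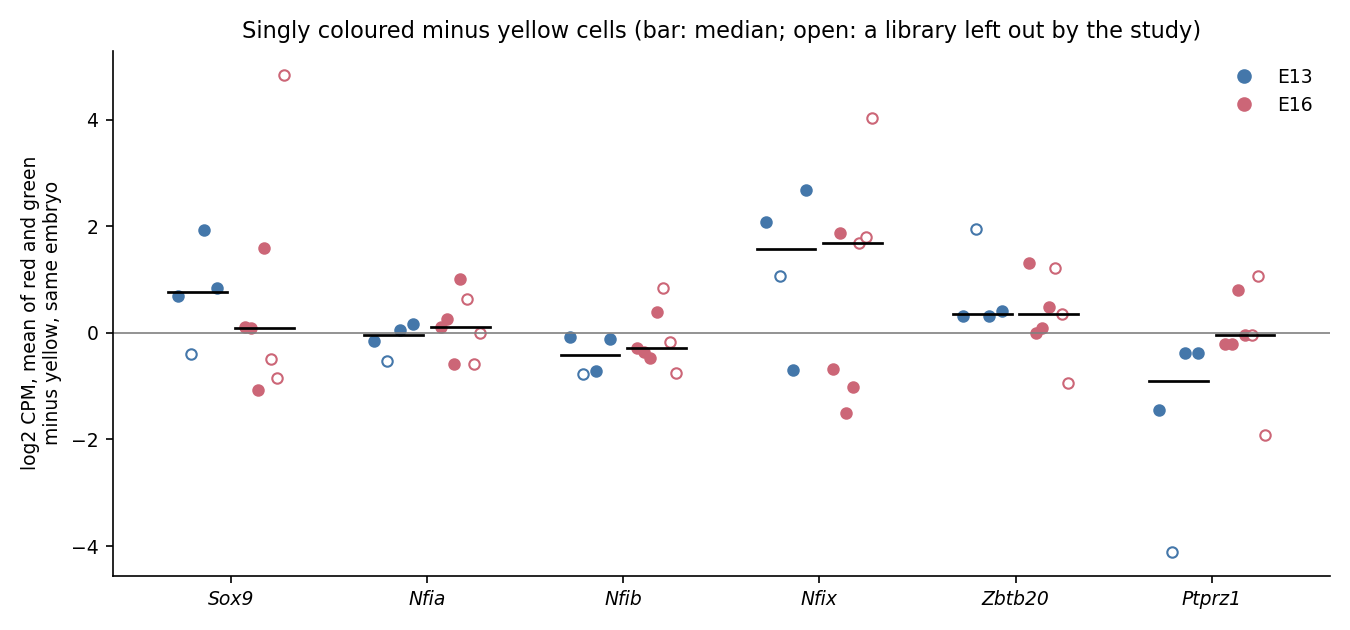
Difference between singly coloured and yellow cells of the same embryo, as the mean log2 CPM of red and green minus yellow, for 6 genes in 4 embryos of E13 (blue) and 7 of E16 (pink); each point is an embryo, bars are medians, and open points hold a library that the study left out. Most points lie within 2 log2 units of 0 on both sides, and at E13 Ptprz1 and Nfib lie below 0 and Zbtb20 above 0 in all 4 embryos.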

How the data were processed

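Polyadenylated RNA of sorted cells was sequenced from 39 Smart-Seq2 libraries without molecular identifiers. The authors aligned reads to GRCm38 with STAR (2.5.0c) and deposited raw counts per gene, of which the unstranded column was used. The stranded columns held medians of 54.6% and 53.0% of it. Libraries under 40% uniquely aligned reads were left out. Pairing by embryo comes from the study, and deviations of same-numbered libraries had a mean r of 0.0457 at E13 and 0.0296 at E16. Genes with a mean count of at least 10 were tested with edgeR 4.0.16 (R 4.3.3), TMM scaling, quasi-likelihood test, Benjamini-Hochberg over all genes, threshold 0.05; DESeq2 1.42.0 was an alternative. Colours were compared with the embryo as a block and ages without it, since ages share no embryo. Embryo sums add the 3 colours of 1 embryo, so deeper libraries weigh more. An embryo that lacks any of the 3 colours in the set of libraries used is not summed. On simulated counts for the age comparison in green cells, 51% of genes changed 4-fold and 100% of those changed 16-fold were recovered. Between singly coloured and yellow cells it was 30% and 100% at E13 and 78% and 100% at E16. The simulation gave all genes the same dispersion, without embryo effects or outlying libraries, and changed only genes with higher counts. Its shares do not carry over to members with a wider spread. Examples are Nfix between the ages in green cells (SE 0.79) and Sox9 between singly coloured and yellow cells at E16 (SE 0.92). All 9 genes were named, with list genes past the threshold (at most 3 each way by p) and the 2 genes of highest Spearman rho per member. The members and lists were chosen with earlier results of these data known. Floors cover counting error only.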

Additional observations from a re-analysis of the deposited data

Results flagged for a closer look

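Of 42 groups examined on the log2 scale, each a gene in an age and colour, 8 held a library far from the others of its group. In 6 of the 8 that library is among the 4 that the study left out. Chance gives about 1 in 20 for separate groups, but these groups share libraries, so that rate does not apply directly. Among the NFI genes, Nfia in E16 green replicate 7 was at 217 CPM, below the 307 to 376 CPM of the others. Nfib in E13 yellow replicate 2 was at 2383 CPM, above the 1125 to 1371 CPM of the others, and in E13 green replicate 4 it was at 513 CPM, below 1159 to 1527 CPM.

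Sox9 was at 0 in E16 yellow replicate 7, where the others were at 12.9 to 103 CPM, and at 0.728 CPM in E16 red replicate 6, where the others were at 25.7 to 76.8 CPM. Zbtb20 in E16 red replicate 5 was at 1576 CPM, above 80.5 to 248 CPM. Ptprz1 was at 662 CPM in E13 yellow replicate 2, above 22.2 to 52.7 CPM, and at 1051 CPM in E16 yellow replicate 7, above 157 to 224 CPM.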

How the results depend on the processing

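Of 1002 alternatives for single members, 912 kept direction and side of the threshold. Most of these results were uncalled with the 36 libraries, and staying uncalled counts as kept. Ptprz1 in green cells kept its call in 2 of 12 fits without 1 library and in 4 of 5 other alternatives. In embryo sums Zbtb20 kept its call in 8 of 11 fits without 1 embryo and in 6 of 7 others. Sox9 kept its call there in 9 of 11 and 7 of 7. With DESeq2, members called between the ages were 1 in yellow (1.71% of all genes), 3 in red (2.67%) and 4 in green cells (6.18%) and 4 in embryo sums (7.84%). In the 32 libraries of the study they were 2 in yellow and 2 in red cells. With all 39 libraries they were 0 in green cells and 1 in embryo sums, where Zbtb20 was then at 1.10 (edgeR adjusted p = 0.365). Leaving out 1 library or embryo gave 0 to 1 in red, 0 to 1 in green and 0 to 3 in embryo sums. Genes called over all alternatives ranged from 1 to 195 in yellow, 5 to 298 in red and 36 to 691 in green cells and 150 to 1098 in embryo sums. No replicate block is possible between ages, and without the replicate block no member was called between colours, while genes called at E13 were 9 for singly coloured, 6 for green and 1 for red against yellow cells. Genes called between colours over all alternatives reached 538, 522 and 321 in these comparisons at E13, 82, 59 and 123 at E16 and 215 for the change with age, each with the DESeq2 Wald test. Depth limits Hopx, Tnc and Nfic, which lie near 3 counts in most libraries.

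With all 39 libraries, the log2 value changed sign to -0.058 for Nfib (age in yellow cells), -2.03 for Zbtb20 (age in green cells), -0.14 for Nfic (age in embryo sums), -0.095 for Sox9 (singly coloured minus yellow at E13), -0.19 for Sox9 (green minus yellow at E13), 0.11 for Ptprz1 (red minus yellow at E13), 0.041 for Nfix (the change of the colour difference with age), 0.67 for Sox9 (the change of the colour difference with age). In the 32 libraries, the log2 value changed sign to -0.61 for Nfic (age in embryo sums), 0.031 for Nfia (singly coloured minus yellow at E13), 0.091 for Nfia (green minus yellow at E13), -0.35 for Nfix (singly coloured minus yellow at E16), 0.27 for Ptprz1 (singly coloured minus yellow at E16), -0.44 for Nfix (green minus yellow at E16), -0.26 for Nfix (red minus yellow at E16), 0.16 for Ptprz1 (red minus yellow at E16). Without the replicate block, the log2 value changed sign to 0.013 for Nfia (green minus yellow at E13), -0.020 for Nfia (green minus yellow at E16), -0.087 for Zbtb20 (green minus yellow at E16), -0.18 for Ptprz1 (green minus yellow at E16), 0.015 for Nfib (red minus yellow at E16). With DESeq2 size factors, the log2 value changed sign to -0.024 for Nfia (green minus yellow at E16). With the DESeq2 Wald test, the log2 value changed sign to -0.025 for Nfia (green minus yellow at E16). Leaving out 1 library or embryo, log2 values that crossed 0 ranged from -0.26 to 0.43 for Nfic (age in embryo sums), -0.20 to 0.039 for Nfia (singly coloured minus yellow at E13), -0.20 to 0.076 for Nfia (green minus yellow at E13), -0.30 to 0.0021 for Nfia (red minus yellow at E13), -0.023 to 0.24 for Nfia (singly coloured minus yellow at E16), -0.28 to 0.0024 for Nfib (singly coloured minus yellow at E16), -0.27 to 0.28 for Ptprz1 (singly coloured minus yellow at E16), -0.15 to 0.11 for Nfia (green minus yellow at E16), -0.34 to 0.77 for Nfix (green minus yellow at E16), -0.062 to 0.31 for Zbtb20 (green minus yellow at E16), -0.15 to 0.40 for Ptprz1 (green minus yellow at E16), -0.33 to 0.089 for Nfib (red minus yellow at E16), -0.11 to 1.06 for Sox9 (red minus yellow at E16), -0.49 to 0.15 for Ptprz1 (red minus yellow at E16), -0.57 to 0.23 for Sox9 (the change of the colour difference with age). None of these differences passed the threshold with the 36 libraries, and the cause of the changes was not tested.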
